A study of Mus musculus with 23 samples.

Results

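The change in RNA levels between the wild-type zygote and the wild-type 2-cell embryo of the mouse was followed across 11438 genes, out of 24411 gene entries in the deposited table of 23 libraries. A gene was included if it reached 1 FPKM in at least 2 of the 5 libraries compared, which were 2 of 2-cell embryos and 3 of zygotes. FPKM counts sequenced fragments per kilobase of transcript, scaled to a fixed number of mapped fragments. Embryos of both stages had a wild-type mother and a wild-type father. They served in the study as the controls of embryos whose mothers were Cxxc1 fl/fl;Zp3-Cre and whose fathers were wild type. Zp3-Cre removes floxed alleles in growing oocytes, and Cxxc1 encodes CFP1, a subunit of the SETD1 complexes that methylate lysine 4 of histone H3. GV oocytes of wild-type females aged 3 weeks are used below only to show earlier levels, and GV oocytes of 3-month females only in 1 count and 1 range given with them. Strain, female age, time after mating and the number of embryos in a library are not given for zygotes and 2-cell embryos in the sources used here. The sources also do not say whether libraries of a group came from separate collections. P-values therefore reflect just the spread between libraries within groups, which may be technical. That spread was pooled over the 8 groups of the series, not only the 5 libraries compared.

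The mouse zygote starts from RNA that the oocyte made and stored. Maternal RNA is shortened at its tail, decapped and degraded from meiotic maturation onwards, while the embryonic genome is switched on weakly in the late zygote and strongly in the 2-cell embryo. Known products of that switch are repeat-linked and homeobox genes that are active for a short time, followed by genes for ribosomes, RNA processing and protein synthesis. A change in FPKM reflects synthesis and decay together, and also tail length where RNA is selected by its tail. Whether these libraries were selected in that way is not stated in the labels.

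Promoters of 7 genes are printed because they belong to the gene groups on which the results turn: transient genes of the 2-cell stage (Zscan4c, Zfp352, Usp17lc), ribosomal protein genes (Rpl41, Rpl6) and maternal genes (Zar1, H1foo). Zscan4c lies outside the rule for named genes and was chosen after its values were seen. Each sequence is the RefSeq window around the gene's start in GRCm38.p6, printed 5′ to 3′ on the gene's strand. Capitals mark every match, on either strand, to 1 of 4 strings: CAAGGTCA, bound by the nuclear receptor NR5A2, GGATTA, the core of homeodomain sites of the PRD-like and OBOX kind, CCGGAAG, the core of ETS factor sites, and TATAAA, the TATA box.
Zscan4c, chr7:11005495-11005794 (plus strand): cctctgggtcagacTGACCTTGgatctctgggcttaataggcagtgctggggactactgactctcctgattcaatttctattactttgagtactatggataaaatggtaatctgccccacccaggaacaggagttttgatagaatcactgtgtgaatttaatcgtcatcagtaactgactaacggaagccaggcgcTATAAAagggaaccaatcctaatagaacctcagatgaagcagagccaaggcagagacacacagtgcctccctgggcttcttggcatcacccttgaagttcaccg
Zfp352, chr4:90218570-90218869 (plus strand): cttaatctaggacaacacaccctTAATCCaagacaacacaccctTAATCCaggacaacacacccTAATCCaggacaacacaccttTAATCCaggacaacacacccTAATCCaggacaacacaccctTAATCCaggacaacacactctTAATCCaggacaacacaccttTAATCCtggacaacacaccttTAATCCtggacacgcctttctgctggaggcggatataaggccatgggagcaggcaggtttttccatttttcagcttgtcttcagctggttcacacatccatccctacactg
Usp17lc, chr7:103416446-103416745 (plus strand): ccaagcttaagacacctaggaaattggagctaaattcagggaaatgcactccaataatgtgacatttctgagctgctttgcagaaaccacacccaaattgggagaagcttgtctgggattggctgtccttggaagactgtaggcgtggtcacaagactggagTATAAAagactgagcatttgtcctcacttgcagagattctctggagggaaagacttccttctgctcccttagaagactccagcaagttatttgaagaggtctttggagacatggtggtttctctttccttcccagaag
Rpl41, chr10:128549119-128549418 (minus strand): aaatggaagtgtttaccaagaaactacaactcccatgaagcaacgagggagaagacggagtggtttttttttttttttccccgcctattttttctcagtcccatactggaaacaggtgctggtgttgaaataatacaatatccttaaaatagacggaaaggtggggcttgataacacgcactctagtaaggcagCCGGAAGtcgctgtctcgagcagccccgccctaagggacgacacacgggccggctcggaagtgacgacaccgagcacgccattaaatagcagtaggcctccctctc
Rpl6, chr5:121204251-121204550 (plus strand): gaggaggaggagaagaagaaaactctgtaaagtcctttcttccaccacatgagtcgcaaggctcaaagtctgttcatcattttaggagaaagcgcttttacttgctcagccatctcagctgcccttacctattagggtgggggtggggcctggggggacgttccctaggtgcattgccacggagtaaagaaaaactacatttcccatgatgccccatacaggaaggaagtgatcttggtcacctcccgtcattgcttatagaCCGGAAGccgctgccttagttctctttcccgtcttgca
Zar1, chr5:72581035-72581334 (minus strand): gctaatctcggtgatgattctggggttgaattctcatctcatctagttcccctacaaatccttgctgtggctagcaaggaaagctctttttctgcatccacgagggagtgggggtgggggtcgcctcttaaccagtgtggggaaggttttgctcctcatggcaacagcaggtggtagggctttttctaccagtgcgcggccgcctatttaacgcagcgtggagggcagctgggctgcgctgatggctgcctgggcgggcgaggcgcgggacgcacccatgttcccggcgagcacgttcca
H1foo, chr6:115944681-115944980 (plus strand): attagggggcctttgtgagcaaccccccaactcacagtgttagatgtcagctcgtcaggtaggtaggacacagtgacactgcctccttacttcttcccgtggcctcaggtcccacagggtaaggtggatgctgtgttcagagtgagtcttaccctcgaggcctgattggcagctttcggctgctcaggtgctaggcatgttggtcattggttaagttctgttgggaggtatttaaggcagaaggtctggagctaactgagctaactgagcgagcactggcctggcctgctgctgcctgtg

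In the Zfp352 window the string GGATTA occurred 9 times, each time as its reverse complement TAATCC and at near-regular steps. Among all 27018 RefSeq promoters of the same length, 7.16% held GGATTA at least once. The Zscan4c window held 1 CAAGGTCA, a string found in 1.53% of promoters, and 1 TATAAA, found in 14.2%. A single TATAAA also stood in the Usp17lc window. Strings were sought anywhere in a window, so a marked TATAAA is not shown to stand at the usual distance from the gene's start. Both ribosomal protein windows held 1 CCGGAAG, found in 9.12% of promoters. The windows of Rps9, Rpl9 and Rpl10a, ribosomal protein genes named below but not printed, held no CCGGAAG. Among the matched promoters of the 11438 genes, CCGGAAG was found in 18.9%, GGATTA in 5.81%, CAAGGTCA in 1.03% and TATAAA in 7.04%. None of the 4 strings occurred in the Zar1 and H1foo windows, and no match overlapped another. CpG dinucleotides numbered 4, 2 and 1 in the windows of the 3 transient genes, 16 and 8 in those of Rpl41 and Rpl6, and 17 and 5 in those of Zar1 and H1foo. Promoter sequences were matched for 80.3% of the 11438 genes but for only 79.5% of those that rose at least 4-fold and 64.3% of the transient genes. A comparison of promoter features between whole groups would therefore be void and is not given. The counts above describe the windows of single genes only.

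The 5 libraries fell into their labelled groups. Pearson correlations of log2(FPKM + 1) were 0.978 between the 2-cell libraries and 0.985 to 0.988 among zygote libraries, and 0.706 to 0.729 across stages. Genes at 1 FPKM or more numbered 11214 and 11244 in the 2-cell libraries, against 8842, 8631 and 8770 in the zygote libraries. Absolute depth is unknown because no counts were used. The steps between low FPKM values gave depths relative to zygote library 1 of 0.78 and 1.35 for the 2-cell libraries, against 1, 1.07 and 1.11 for the zygote libraries. The higher gene number therefore also held in the shallower 2-cell library.

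The table carried 95 rows that name no mouse gene, of which 92 are ERCC synthetic spike-in controls and 3 are named RGC-GFP, RGC-mRFP and RGC-CRE. These rows made up 10.9% and 7.79% of all FPKM in the 2-cell libraries, against 3.05%, 2.93% and 2.3% in the zygote libraries. The 11 ERCC rows with a mean of at least 20 FPKM were 2.96 to 3.62 times higher in 2-cell embryos than in zygotes, with a median ratio of 3.38. RGC-GFP was higher by a ratio of 2.99 and RGC-mRFP by 3.24. Gene FPKM per ERCC FPKM was 39.8 and 52.2 in the 2-cell libraries, against 182, 165 and 195 in the zygote libraries, with no overlap. When the rows were added, in what amount and per how many embryos is not given in the sources used here. FPKM as deposited is a share of each library, so each statement below of higher or lower RNA is one about shares. In such bulk samples fewer cells of a type and less RNA per cell cannot be told apart. An alternative that divides every library by its ERCC total (ERCC scaling), chosen after seeing the data, is given beside them: a gene whose share rose by less than that of the spike-ins is lower on that scale.

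**Figure D1:**
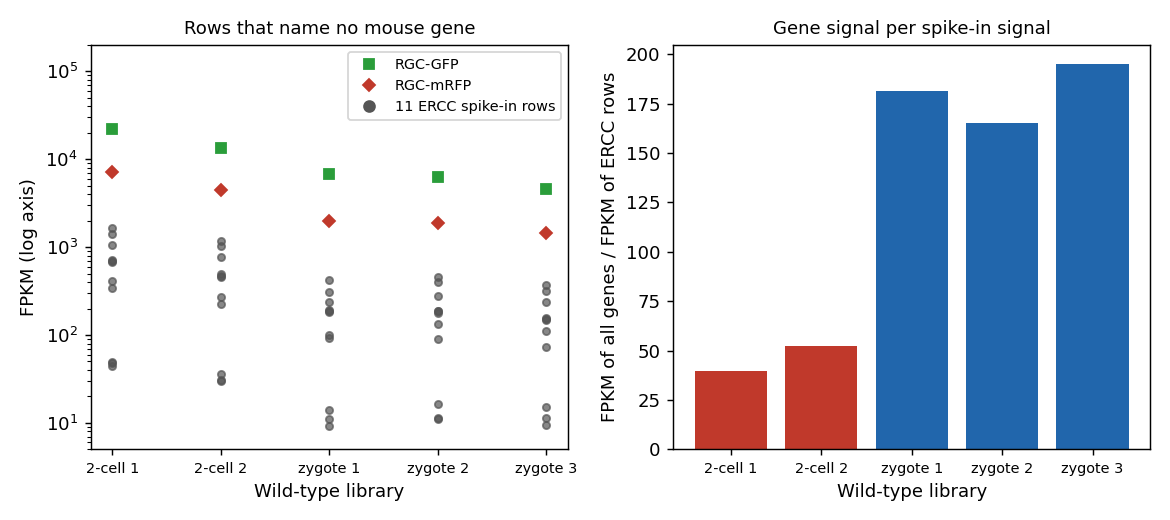
FPKM of rows that name no mouse gene (left, log axis; 11 ERCC rows with a mean of at least 20 FPKM, RGC-GFP and RGC-mRFP) and the ratio of gene FPKM to ERCC FPKM (right) in each wild-type library. All rows plotted are higher in both 2-cell libraries, and the ratio is 39.8 and 52.2 in 2-cell embryos against 165 to 195 in zygotes.

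Most genes differed between the stages. Of the 11438 genes, 9003 (78.7%) were called at an adjusted p under 0.05 by limma with Benjamini-Hochberg adjustment over 13731 genes fitted, of which 68.5% were called. FPKM was higher in 2-cell embryos for 5765 and lower for 3238. A change of at least 4-fold was seen upwards for 2234 genes and downwards for 427, against shares of 16.3% and 3.11% among all genes fitted, and one of at least 16-fold for 378 and 11. FPKM did not overlap between the stages for 9600 of the 11438 genes and for 10515 (76.6%) of the 13731 genes fitted. Each change is a difference of log2(FPKM + 1), a scale that makes changes of low genes look smaller, and the median was 0.46 over the 11438 genes and 0.31 over all genes fitted. On the ERCC scale 2231 of the 11438 genes were higher and 5883 lower, and the median change was -0.68. Over the 13731 genes fitted, 2233 (16.3%) were higher and 5967 (43.5%) lower on that scale. Of the 5765 higher genes, 2231 stayed higher on that scale, 2724 were no longer called and 810 were lower, while 3236 of the 3238 lower genes stayed lower. Median-of-ratios scaling gave 4968 higher and 4291 lower genes, and quantile normalization gave 4318 and 5010. These scalings moved the median over all genes fitted by -0.22 and -0.53, and ERCC scaling moved it by -0.71. ERCC scaling divided the 2-cell libraries by 5.24 and 3.66 and the zygote libraries by 1.3, 1.43 and 1.18. In median-of-ratios and ERCC scaling 1 FPKM was added after the division. Genes low in both stages therefore moved less than abundant ones, and these medians understate the shift of abundant genes.

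**Figure D2:**
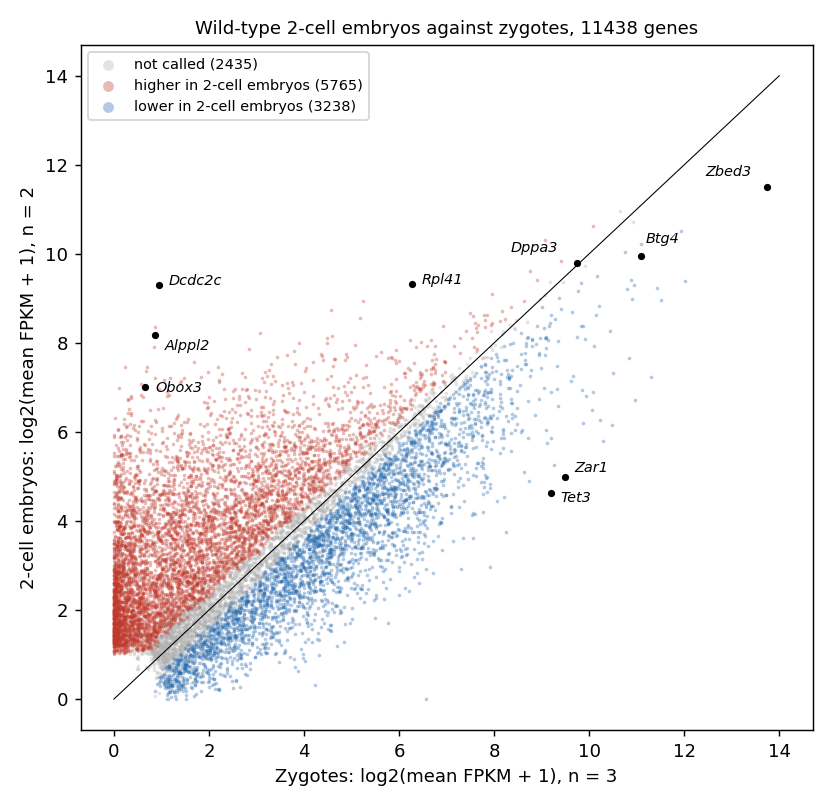
Mean FPKM of the 11438 genes in 2-cell embryos (vertical, n = 2) against zygotes (horizontal, n = 3), both as log2(FPKM + 1), with the line of equal FPKM. Genes called higher (5765) lie above the line and genes called lower (3238) below it; the cloud on the left edge holds genes near 0 FPKM in zygotes.

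Genes at 1 FPKM or more in both 2-cell libraries and under 1 FPKM in every zygote library numbered 2191, and 360 genes were under 1 FPKM in both 2-cell libraries. These genes passed the filter through 1 stage only, so the direction of their change is set by how they were chosen. The remaining 8887 genes, which both stages held, were divided into 3633 called higher, 2957 called lower and the rest not called.

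The largest rises among genes with a mean of at least 5 FPKM were of transcripts that lay near or under 1 FPKM in zygotes. Where every zygote library was under 1 FPKM, as for Dcdc2c and Prps1, the filter set the direction. The adjusted p of such a gene does not test that direction. Dcdc2c, a gene with a doublecortin domain, was at 584 and 685 FPKM in 2-cell embryos, against 0.973, 0.985 and 0.813 FPKM in zygotes, a log2 change of 8.36 ± 0.277 (SE, adjusted p = 2.71e-15). Alppl2, which encodes an alkaline phosphatase of the placental type, was at 273 and 306 FPKM in 2-cell embryos, against 0.677, 1.18 and 0.612 FPKM in zygotes. In GV oocytes of 3-week females it had stood at 5.06, 5.65 and 4.8 FPKM. Prps1, whose product makes phosphoribosyl pyrophosphate for nucleotide synthesis, was at 189 and 163 FPKM in 2-cell embryos, against 0.677, 0.586 and 0.612 FPKM in zygotes, a log2 change of 6.76 ± 0.197 (SE, adjusted p = 4.92e-16). Slc34a2, a sodium-phosphate cotransporter gene, had 169 and 158 FPKM in the 2-cell libraries and 0.652, 0.392 and 0.716 FPKM in the zygote libraries. Gcsh, the H protein gene of mitochondrial glycine cleavage, had 160.4 and 133 FPKM in the 2-cell libraries and 1.3, 0.458 and 0.735 FPKM in the zygote libraries, and Guca1a, known as a calcium sensor of photoreceptors, had 114 and 108 FPKM in the 2-cell libraries and 0.823, 0 and 0 FPKM in the zygote libraries. Zfp622, a zinc-finger protein gene whose yeast counterpart acts in maturation of the large ribosomal subunit, was at 120.1 and 89.8 FPKM in 2-cell embryos, against 0.284, 0.133 and 0.257 FPKM in zygotes. The homeobox genes Crxos and Obox3 changed by 6.89 and 6.38 on the log2 scale. The other members of the top 15 were Gm7102, Gm11544, AF067063, B020031M17Rik, Gm11517 and Gm16381, with log2 changes between 6.41 and 7.53. Every one of the 15 was higher in both 2-cell libraries than in all zygote libraries, as the naming rule requires, and on the ERCC scale their changes ran from 4.39 to 6.41.

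The largest falls included known maternal-effect genes. Zar1, a maternal-effect gene needed for the first cleavage and a regulator of stored mRNA, was at 30.5 and 31.3 FPKM in 2-cell embryos, against 729, 779.6 and 644 FPKM in zygotes, a log2 change of -4.49 ± 0.11 (SE, adjusted p = 7.27e-17). Tet3, the dioxygenase that oxidises 5-methylcytosine in the zygote, was at 21.9 and 25.4 FPKM in 2-cell embryos, against 574, 555 and 623 FPKM in zygotes, a log2 change of -4.57 ± 0.148 (SE, adjusted p = 2.25e-15). Bub1b, a spindle checkpoint kinase gene, had 13.5 and 11.4 FPKM in the 2-cell libraries and 301, 329 and 285 FPKM in the zygote libraries. H1foo, the oocyte linker histone, was at 81.8 and 59.4 FPKM in 2-cell embryos, against 1405, 1623 and 1243 FPKM in zygotes. Rgs2, a regulator of G protein signalling that limits calcium release in the egg, had the largest fall with 9.53 and 4.2 FPKM in the 2-cell libraries and 226, 271 and 226 FPKM in the zygote libraries, a log2 change of -5.03 ± 0.266 (SE, adjusted p = 1.70e-12). Stard13 had 6.56 and 6.49 FPKM in the 2-cell libraries and 153, 165 and 153 FPKM in the zygote libraries. Dcp1a, an activator of mRNA decapping, was at 35.8 and 38.9 FPKM in 2-cell embryos, against 588, 651 and 592 FPKM in zygotes, and Dnajb4, a co-chaperone of the Hsp40 family, at 12.1 and 10.6 FPKM in 2-cell embryos, against 170.1, 201 and 191 FPKM in zygotes. Oas1d, an ovary-expressed relative of oligoadenylate synthetases, fell by 3.96 on the log2 scale, and Nlrp4b by 3.93. Obox2, E330021D16Rik, D6Ertd527e and Zfp60 changed by -4.51, -4.26, -4.07 and -4.06. Eif3j2 had 0.465 and 0.0158 FPKM in the 2-cell libraries and 17.2, 18.7 and 17.5 FPKM in the zygote libraries, but its adjusted p of 0.025 became 0.0723 without 2-cell library 1 and 0.114 without 2-cell library 2. The SE of 1.5 draws on the spread within all 8 groups. Eif3j2 had 0.0435, 47.4 and 0.142 FPKM in zygotes of Cxxc1 fl/fl;Zp3-Cre mothers. Its near-identical copy Eif3j1 changed the other way, with 96.9 and 84.8 FPKM in the 2-cell libraries and 0.262, 0.243 and 0.235 FPKM in the zygote libraries, and since reads of the pair cannot be assigned with certainty, the value of each copy is uncertain. On the ERCC scale the falls of the other 14 genes were larger, from -4.8 to -6.24.

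**Figure D3:**
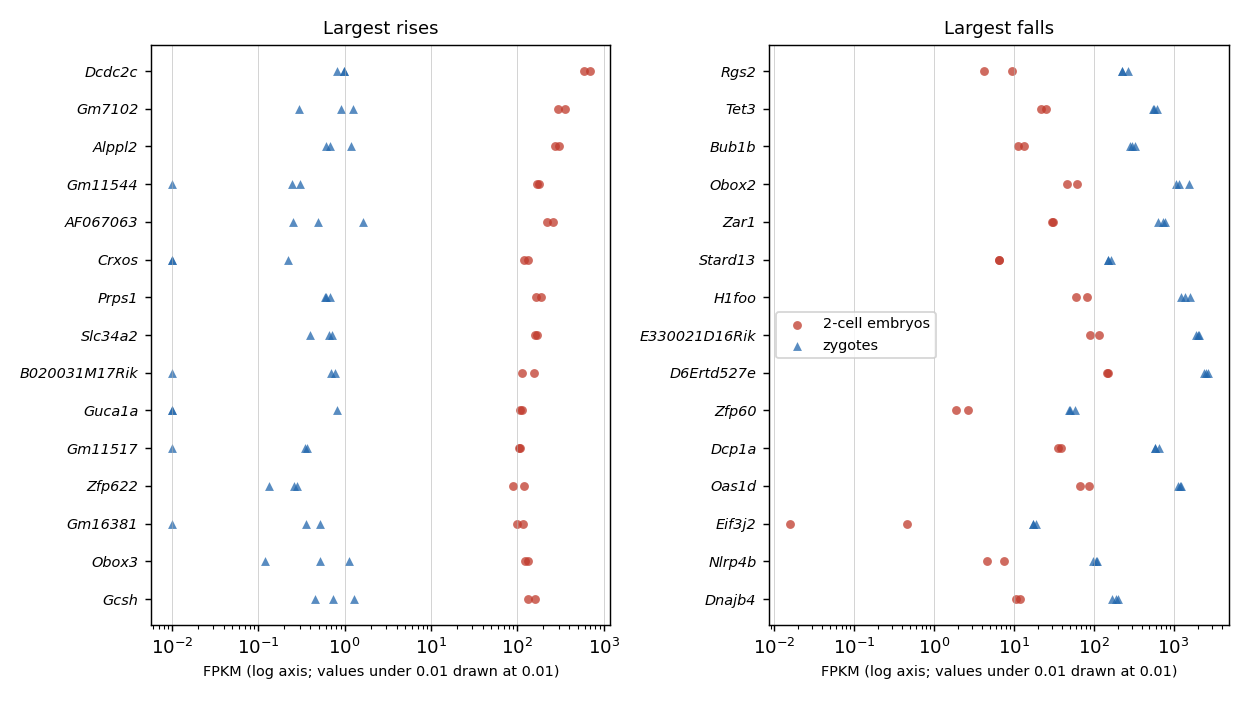
FPKM (log axis) of the 15 largest called rises and the 15 largest called falls in each 2-cell library (circles) and zygote library (triangles). The risen genes lie near or under 1 FPKM in zygotes and mostly above 100 FPKM in 2-cell embryos; Dcdc2c has the highest 2-cell values, 584 and 685 FPKM.

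Some of the most abundant RNAs of the zygote were still among the most abundant in the 2-cell embryo. Zbed3, a gene of the subcortical maternal complex, led in both stages with 2799.8 and 2959 FPKM in 2-cell embryos, against 14661, 12988 and 13513 FPKM in zygotes. C86187 had 1480.0 and 1429.6 FPKM in the 2-cell libraries and 4032, 3799 and 3894 FPKM in the zygote libraries. Btg4, an adaptor of the CCR4-NOT deadenylase needed for decay of maternal mRNA, was at 1039 and 931 FPKM in 2-cell embryos, against 2081, 2402 and 2041 FPKM in zygotes, and Bcl2l10, an anti-apoptotic gene abundant in oocytes, at 711 and 625 FPKM in 2-cell embryos, against 4098, 4486 and 3887 FPKM in zygotes. All 4 fell in FPKM as deposited, and the changes of Zbed3 and Btg4 were not called after quantile normalization. Spin1, a spindle-associated histone reader, had 584 and 620.1 FPKM in the 2-cell libraries and 2730.3, 2773 and 2785 FPKM in the zygote libraries, and AU022751 changed by -2.58. The RNA-binding protein gene Rbm38 was at 1686 and 1673 FPKM in 2-cell embryos, against 2106, 1909 and 1848 FPKM in zygotes and was not called (adjusted p = 0.071), while quantile normalization turned its change of -0.22 to 0.84. Mphosph6, an exosome cofactor gene, and Khdc1b changed by -0.89 and -0.72, values that turned positive under quantile normalization. Omt2b was at 2399.9 and 1613 FPKM in 2-cell embryos, against 1545, 1746 and 1506 FPKM in zygotes and not called (adjusted p = 0.0779), and Omt2a at 1773 and 1375 FPKM in 2-cell embryos, against 1039.7, 1199 and 1026 FPKM in zygotes (adjusted p = 0.00159), both with negative changes on the ERCC scale. Omt2a was no longer called without 2-cell library 1 (adjusted p = 0.0679) or after median-of-ratios scaling (adjusted p = 0.659). Rn45s, the precursor of ribosomal RNA, had 1356 and 1176 FPKM in the 2-cell libraries and 566, 564 and 475 FPKM in the zygote libraries, a rise of 1.24 on the log2 scale that became -0.51 on the ERCC scale.

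Among genes with a mean of at least 50 FPKM in each group, the 5 smallest changes were those of Zc3h14, Bcl2l1, Ipmk, Tesc and Fam53c. Zc3h14, a poly(A)-binding zinc-finger protein gene, was at 59.5 and 51.4 FPKM in 2-cell embryos, against 56.2, 56.9 and 53.1 FPKM in zygotes, and the 95% interval of its log2 change was -0.18 to 0.17. Fam53c was at 51.2 and 55.5 FPKM in 2-cell embryos, against 57.5, 49.5 and 52.3 FPKM in zygotes, with an interval of -0.17 to 0.18. Ipmk, an inositol phosphate kinase gene, and Bcl2l1, an apoptosis inhibitor, had intervals of -0.19 to 0.19 and -0.22 to 0.22, and Tesc, whose 2-cell libraries were at 364 and 218 FPKM, one of -0.39 to 0.38. After median-of-ratios scaling Zc3h14 and Bcl2l1 were called at -0.44, and Ipmk and Fam53c at -0.43. On the ERCC scale the changes of these 5 genes lay between -1.75 and -1.67.

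Of all 11438 genes, 50.4% were higher and 28.3% lower as deposited, and 2231 were higher and 5883 lower on the ERCC scale. The counts of each list below are to be read against these. Among the lists, the transient genes of the 2-cell stage had the highest median. Of the transient 2-cell genes, 40 of 42 genes rose and 1 fell, with a median log2 change of 4.33, against shares of 44.4% higher and 24.1% lower over all genes fitted. ERCC scaling left this picture in place, as 36 rose and 2 fell with a median of 2.44. Summed over the list, the RNAs came to 1547 and 1373 FPKM in the 2-cell libraries, against 62.5, 50.5 and 54.2 FPKM in the zygote libraries. Their median level was 24.2 FPKM in 2-cell embryos and 0.11 FPKM in zygotes, and 0.145 FPKM in 3-week GV oocytes. Genes at or below that zygote median passed the filter through the 2-cell libraries only. The direction of their change was therefore set by how they were chosen, and the count of risen genes is a description. B020031M17Rik had 154 and 112 FPKM in the 2-cell libraries and 0.764, 0 and 0.691 FPKM in the zygote libraries. Gm4340, Tmem92 and Tdpoz4 followed with changes of 6.28, 5.65 and 5.52. Tmem92, a membrane protein gene, was at 75.4 and 74.9 FPKM in 2-cell embryos, against 0.403, 0.612 and 0.544 FPKM in zygotes. Sp110, a nuclear body gene of the interferon-responsive kind, was the most abundant of the list at 228 and 283 FPKM in 2-cell embryos, against 23.9, 19.5 and 20.9 FPKM in zygotes, but GV oocytes had held it at 296, 303 and 296 FPKM. Zscan4c, whose products act at telomeres in embryonic stem cells, was at 30.6 and 18.1 FPKM in 2-cell embryos, against 0.252, 0.118 and 0.0604 FPKM in zygotes. Zfp352, a zinc-finger gene derived from retroposition, was at 30.1 and 29.4 FPKM in 2-cell embryos, against 0, 0.0841 and 0 FPKM in zygotes. The exceptions, named after their values were seen, were Dux and D5Ertd577e. Dux encodes a homeodomain factor that can turn on this gene class, and it was at 1.17 and 2.03 FPKM in 2-cell embryos, against 2.73, 1.62 and 2.02 FPKM in zygotes, which overlapped (adjusted p = 0.377). D5Ertd577e changed by -0.57.

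The Usp17l deubiquitinase genes, which belong to the same class and are near-identical copies, rose in each of 5 entries. Usp17lc was at 45.3 and 35.9 FPKM in 2-cell embryos, against 0.494, 0.29 and 0.223 FPKM in zygotes and Usp17lb at 42 and 33.3 FPKM in 2-cell embryos, against 0, 0.144 and 0 FPKM in zygotes. Usp17ld and Usp17le changed by 3.89 and 2.83. Reads of these copies cannot be assigned with certainty, so their sum is given as well, 115 and 91.7 FPKM in the 2-cell libraries, against 0.622, 0.494 and 0.223 FPKM in the zygote libraries. Every entry was thus under 1 FPKM in each zygote library and passed the filter through the 2-cell libraries only, which set its direction.

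Obox homeobox genes moved in both directions. Obox3 was at 132 and 122 FPKM in 2-cell embryos, against 0.521, 1.11 and 0.119 FPKM in zygotes and Obox6 at 77.2 and 78 FPKM in 2-cell embryos, against 0.163, 0.153 and 0.147 FPKM in zygotes, with changes of 6.38 and 6.09. Obox1 was at 96.7 and 81.5 FPKM in 2-cell embryos, against 1042, 1174 and 970.1 FPKM in zygotes, Obox2 at 62.3 and 46.3 FPKM in 2-cell embryos, against 1156, 1561 and 1061 FPKM in zygotes, and Obox5 at 532 and 374 FPKM in 2-cell embryos, against 1164, 1250.4 and 1112 FPKM in zygotes. Together with Obox7, which changed by -2.39, that made 2 members that rose and 4 that fell, a count that was the same on the ERCC scale. Oocytes of 3-week females had held Obox1 at 508, 488 and 508 FPKM and Obox3 at 0.208, 0.659 and 0.519 FPKM. The members share sequence, and single values are uncertain for that reason.

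Of the regulators linked to embryonic genome activation, 27 of 34 genes rose and 5 fell, with a median of 2.15 (17 rose and 12 fell on the ERCC scale, median 0.73). Dppa4, a chromatin factor that acts upstream of Dux, was at 124 and 101 FPKM in 2-cell embryos, against 0.416, 0.442 and 0.568 FPKM in zygotes, a log2 change of 6.26 ± 0.17 (SE, adjusted p = 2.09e-16). It passed the filter through the 2-cell libraries only, which set its direction. Crxos had 134 and 119 FPKM in the 2-cell libraries and 0, 0 and 0.224 FPKM in the zygote libraries. Yap1, the effector of Hippo signalling and the most abundant of the list, was at 425 and 444 FPKM in 2-cell embryos, against 696, 627 and 705 FPKM in zygotes, a change of -0.63 that turned to 0.21 under quantile normalization. The other fallen members, named after their values were seen, were Obox7, the NF-Y subunits Nfya and Nfyc (-2.49 and -0.54) and the heterochromatin factor Trim28. Tfap2c and Pou5f1 were not called (log2 changes of -0.21 and 0.31).

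Heat-shock and chaperone genes are among the first that the embryonic genome transcribes. In this list 25 of 37 genes rose and 7 fell, while on the ERCC scale 11 rose and 16 fell, and the list median of 1.39 became -0.25. Hspa1a, the inducible Hsp70 gene with a near-identical copy Hspa1b, was at 38.4 and 29.9 FPKM in 2-cell embryos, against 1.03, 0.434 and 0.901 FPKM in zygotes. Bag1, an Hsp70 exchange factor gene, had 54.3 and 46.9 FPKM in the 2-cell libraries and 1.61, 1.81 and 1.6 FPKM in the zygote libraries, and Cct6a, a subunit of the cytosolic chaperonin, had 29.7 and 25.5 FPKM in the 2-cell libraries and 0.938, 0.968 and 0.679 FPKM in the zygote libraries. The most abundant member, Hsp90ab1, was at 187 and 148 FPKM in 2-cell embryos, against 344, 277 and 306 FPKM in zygotes, a change of -0.88.

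No Y-linked gene reached 1 FPKM in enough libraries to be included. The summed FPKM of the 12 Y-linked entries was 4.48 and 3.86 FPKM in the 2-cell libraries, against 0.165, 0.153 and 0 FPKM in the zygote libraries. Imprinted genes and genes of X inactivation went either way: 10 of 20 genes rose and 7 fell, whereas on the ERCC scale 3 rose and 10 fell. Cdkn1c, a cyclin-dependent kinase inhibitor gene expressed from the maternal allele, was at 28.1 and 21 FPKM in 2-cell embryos, against 1.08, 0.509 and 0.981 FPKM in zygotes. Zrsr1, an imprinted splicing factor gene expressed from the paternal allele, was at 8.94 and 8.32 FPKM in 2-cell embryos, against 0.0431, 0.0403 and 0 FPKM in zygotes, and Jade1, a histone acetylation cofactor gene, at 8.84 and 6.14 FPKM in 2-cell embryos, against 0, 0.0328 and 0 FPKM in zygotes. Phlda2 had 29.2 and 20.8 FPKM in the 2-cell libraries and 2.75, 7.48 and 3.42 FPKM in the zygote libraries, and its change of 2.3 was not called on the ERCC scale (0.65, adjusted p = 0.0607). Gnas, the stimulatory G protein gene, was at 71.8 and 69 FPKM in 2-cell embryos, against 32.3, 26.9 and 27.2 FPKM in zygotes, a change of 1.26 that became -0.44 on the ERCC scale. FPKM of a whole gene does not separate the parental alleles.

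Genes for making ribosomes rose together. Of the cytosolic ribosomal protein genes, 82 of 86 genes rose and 2 fell, with a median log2 change of 3.3 (63 rose and 5 fell on the ERCC scale, median 1.55). Their summed FPKM was 11522 and 9081 FPKM in the 2-cell libraries, against 1544, 1608 and 1381 FPKM in the zygote libraries. Rpl41, which encodes the smallest protein of the large subunit and is the most abundant of the list, was at 655 and 617 FPKM in 2-cell embryos, against 86.7, 66.3 and 77.2 FPKM in zygotes, a log2 change of 3.04 ± 0.15 (SE, adjusted p = 6.06e-13). Rpl6 had 115 and 87.6 FPKM in the 2-cell libraries and 3.34, 1.99 and 2.87 FPKM in the zygote libraries, Rps9 had 189.8 and 128 FPKM in the 2-cell libraries and 6.23, 4.52 and 5.64 FPKM in the zygote libraries and Rpl10a had 86.7 and 77.4 FPKM in the 2-cell libraries and 2.34, 3.6 and 3.18 FPKM in the zygote libraries. Rpl9 changed by 4.57 with an SE of 0.734, the widest of these 5. Named after their values were seen, Rpl22 and Rps15a fell, by 0.82 and 0.68 on the log2 scale, and Rpl22l1 and Rps27 were not called at changes of 1.09 and 1.22. Most of these genes have processed copies elsewhere in the genome, and the deposited values depend on how reads of such copies were assigned.

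Nucleolar genes, which process ribosomal RNA and assemble subunits, gave 83 risen and 5 fallen genes of 94, with a median of 2.57 (54 rose and 21 fell on the ERCC scale, median 0.90). Nop2, a methyltransferase of large-subunit rRNA, was at 69.6 and 73.2 FPKM in 2-cell embryos, against 0.458, 0.143 and 0.207 FPKM in zygotes, a log2 change of 5.84 ± 0.248 (SE, adjusted p = 8.02e-14). It passed the filter through the 2-cell libraries only, which set its direction. Taf1d, a subunit of the selectivity factor of RNA polymerase I, was at 125 and 112 FPKM in 2-cell embryos, against 0.584, 1.53 and 1.41 FPKM in zygotes. Nhp2, a core protein of H/ACA ribonucleoproteins, had 128 and 92.2 FPKM in the 2-cell libraries and 1.61, 0.866 and 1.04 FPKM in the zygote libraries, and Rrp9, a U3 snoRNP protein gene, had 163 and 138 FPKM in the 2-cell libraries and 3.46, 1.95 and 2.25 FPKM in the zygote libraries. Npm1, which encodes nucleophosmin and was the most abundant of the list, was at 262 and 241 FPKM in 2-cell embryos, against 466, 472 and 483 FPKM in zygotes, a change of -0.91. The other 4 fallen genes, named after their values were seen, were Wdr36, Brix1, Utp18 and Utp20, between -0.86 and -0.44.

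In the list of RNA polymerase II and general factors, 50 of 78 genes rose and 18 fell, but on the ERCC scale 16 rose and 47 fell and the median of 0.72 became -0.92. Med29, a Mediator subunit gene, was at 71.6 and 68 FPKM in 2-cell embryos, against 0.0942, 0.0884 and 0.852 FPKM in zygotes, and Gtf2f1, a subunit of TFIIF, at 128 and 111 FPKM in 2-cell embryos, against 6.2, 3.88 and 4.07 FPKM in zygotes. Polr2b, the second largest subunit of the polymerase, had 35.4 and 27.8 FPKM in the 2-cell libraries and 1.08, 1.1 and 1.07 FPKM in the zygote libraries, while Polr2c, the most abundant of the list, had 239 and 189 FPKM in the 2-cell libraries and 399, 396 and 344 FPKM in the zygote libraries. Subunits of the same enzyme thus differed in direction, with changes of 3.96 and -0.83. Nelfe, of the pausing factor NELF, changed by 3.99.

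For splicing genes, 32 of 61 genes rose and 18 fell. Their shares of 52.5% and 29.5% were near those of all 11438 genes, 50.4% and 28.3%. On the ERCC scale 14 rose and 34 fell, and the median of 0.40 became -1.06. Snrpc, a protein gene of the U1 snRNP, was at 191 and 157 FPKM in 2-cell embryos, against 3.62, 4.68 and 2.38 FPKM in zygotes, and Snrnp35, of the minor spliceosome, at 44.9 and 53.7 FPKM in 2-cell embryos, against 0.414, 0.585 and 0.375 FPKM in zygotes. Cdc5l and the Sm protein gene Snrpd2 changed by 4.61 and 4.4. Snrpg, another Sm protein gene, was the most abundant of the list at 495 and 398 FPKM in 2-cell embryos, against 326, 366 and 289 FPKM in zygotes. Its change of 0.45 was not called without 2-cell library 1 (0.29, adjusted p = 0.258) or without zygote library 3 (0.36, adjusted p = 0.0967) or after median-of-ratios scaling (adjusted p = 0.994), and it was -1.3 on the ERCC scale.

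Translation genes had positive medians as deposited and negative ones on the ERCC scale. Among initiation factor genes 38 of 52 genes rose and 12 fell (18 rose and 23 fell on the ERCC scale). Eif3c, a core subunit of eIF3, was at 84.3 and 80.2 FPKM in 2-cell embryos, against 3.17, 4.01 and 3.87 FPKM in zygotes, and Eif2b4, of the exchange factor of eIF2, at 57.5 and 49.2 FPKM in 2-cell embryos, against 2.74, 2.15 and 2.31 FPKM in zygotes. Eif5a, the hypusinated elongation factor, was at 689 and 666 FPKM in 2-cell embryos, against 508, 462 and 453 FPKM in zygotes, a change of 0.52 that was not called after median-of-ratios scaling (0.07, adjusted p = 0.66) and became -1.23 on the ERCC scale. Of the aminoacyl-tRNA synthetase genes 24 of 36 genes rose and 7 fell (9 rose and 15 fell on the ERCC scale), led by Aimp2 and Aars with log2 changes of 4.02 and 3.63. Hars and Mars changed by 3.2 and 3.12. Lars2, the mitochondrial leucine enzyme, was at 385 and 316 FPKM in 2-cell embryos, against 216, 189 and 172 FPKM in zygotes, a change of 0.86 as deposited and -0.88 on the ERCC scale. Of the nuclear transport genes 23 of 48 genes rose and 21 fell, and on the ERCC scale 8 rose and 29 fell. Kpna1, an importin alpha gene, was at 38.5 and 34.7 FPKM in 2-cell embryos, against 0.0484, 0.0453 and 0.0438 FPKM in zygotes, and Ipo7, an import receptor gene, at 35.1 and 33.9 FPKM in 2-cell embryos, against 0.254, 0.594 and 0.459 FPKM in zygotes. Rangap1 and the mRNA exporter Nxf1 changed by 4.13 and 3.99. Nup62, a channel nucleoporin and the most abundant of that list, was at 270.5 and 237 FPKM in 2-cell embryos, against 348, 340.3 and 314 FPKM in zygotes; its change of -0.40 turned to 0.21 under quantile normalization and was not called without 2-cell library 2 (-0.30, adjusted p = 0.0536).

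Lists of mitochondrial and protein turnover genes had positive medians as deposited and negative ones on the ERCC scale. The same held for all 11438 genes, with medians of 0.46 and -0.68. Of the oxidative phosphorylation genes 64 of 83 genes rose and 1 fell, with a median of 1.29, while on the ERCC scale 15 rose and 25 fell and the median was -0.21. Atp5g1, a c-ring gene of the ATP synthase, was at 118 and 96.8 FPKM in 2-cell embryos, against 5.81, 2.89 and 5.28 FPKM in zygotes, and Ndufb11, a complex I gene, at 87.2 and 60.2 FPKM in 2-cell embryos, against 4.24, 5.34 and 4.09 FPKM in zygotes. Ndufa2 and Ndufs8, both of complex I, changed by 3.78 and 3.7. Cox8a, of cytochrome c oxidase, was the most abundant of the list at 439 and 344 FPKM in 2-cell embryos, against 254, 226 and 208 FPKM in zygotes, a change of 0.76 that was not called after median-of-ratios scaling (0.32, adjusted p = 0.0791) and became -0.98 on the ERCC scale. The single fallen gene, named after its value was seen, was Sdha, the flavoprotein of succinate dehydrogenase, at 18.4 and 19.8 FPKM in 2-cell embryos, against 108, 100.5 and 106 FPKM in zygotes. Mitochondrial ribosomal protein genes gave 45 risen and 10 fallen genes of 73 (18 rose and 31 fell on the ERCC scale). Mrpl12 had 38.7 and 29.9 FPKM in the 2-cell libraries and 0.986, 0.697 and 1.56 FPKM in the zygote libraries, and Mrps7, Mrpl46 and Mrpl43 changed by 3.99, 3.82 and 3.77. Mrpl10 was not called at 0.11 and was at -1.55 on the ERCC scale.

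Of the proteasome genes 26 of 44 genes rose and 10 fell (59.1% and 22.7%), against 50.4% and 28.3% of all 11438 genes. On the ERCC scale 12 rose and 20 fell. Psmb5, a catalytic subunit, was at 60.8 and 55 FPKM in 2-cell embryos, against 2.48, 1.3 and 1.24 FPKM in zygotes. Psmb7, Psmb4 and Psma3, all of the core particle, changed by 3.55, 3.07 and 3.07. Psmd3, of the regulatory particle, changed by -0.65 and was not called after quantile normalization. For glycolysis, pyruvate and TCA genes 29 of 50 genes rose and 14 fell (58.0% and 28.0%), and on the ERCC scale 6 rose and 25 fell. Their summed FPKM was 1588 and 1343 FPKM in the 2-cell libraries, against 1731, 1556 and 1621 FPKM in the zygote libraries. Mdh2, the mitochondrial malate dehydrogenase, was at 101 and 62.9 FPKM in 2-cell embryos, against 1.02, 1.61 and 2.01 FPKM in zygotes, and Mpc2, of the mitochondrial pyruvate carrier, at 73.3 and 37.2 FPKM in 2-cell embryos, against 5.08, 2.4 and 2.3 FPKM in zygotes. Pyruvate is the main fuel of the early mouse embryo. Idh3g and Idh3b, of NAD-dependent isocitrate dehydrogenase, changed by 3.76 and 2.63. Ldhb, the lactate dehydrogenase of the oocyte, was at 301 and 259 FPKM in 2-cell embryos, against 914, 808 and 847 FPKM in zygotes, after 2599, 2486 and 2575 FPKM in 3-week GV oocytes. Autophagy genes gave 18 risen and 7 fallen genes of 33 (54.5% and 21.2%), and on the ERCC scale 9 rose and 18 fell. Wipi2 was at 34.2 and 33.1 FPKM in 2-cell embryos, against 1.25, 0.887 and 1.26 FPKM in zygotes. Map1lc3a, Gabarap and Gabarapl2, which become coupled to autophagosome lipid, changed by 3.52, 3.22 and 2.99. Becn1, the most abundant of that list, was not called at 66 and 69.5 FPKM in 2-cell embryos, against 86.2, 85.9 and 72.9 FPKM in zygotes (log2 change -0.26, adjusted p = 0.066), although it was called without zygote library 3 (adjusted p = 0.0281).

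**Figure D4:**
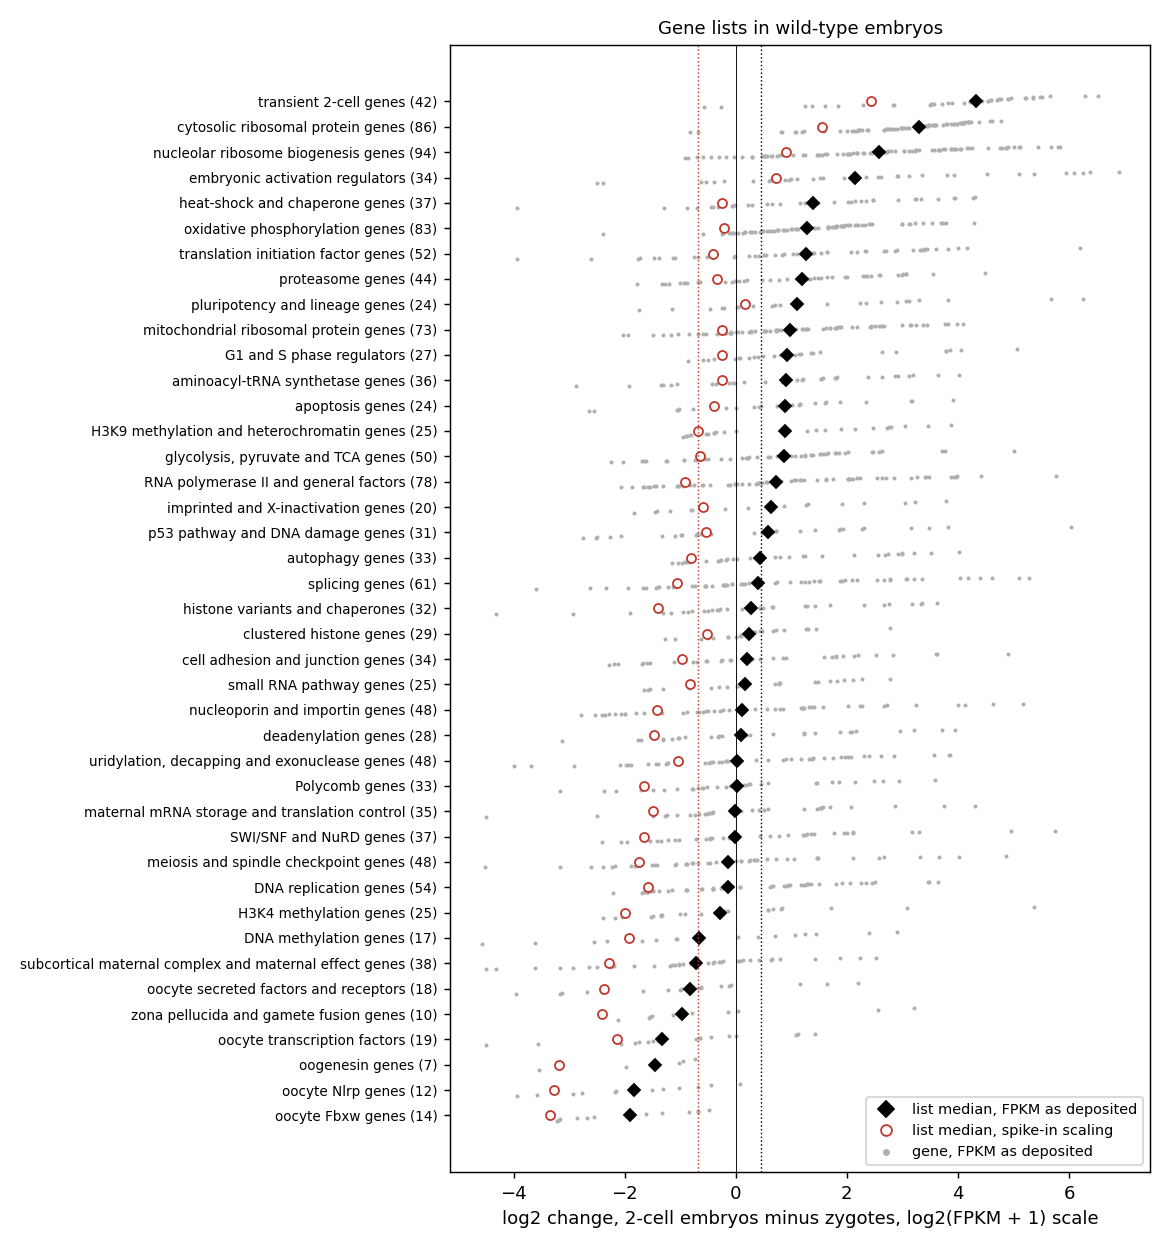
Log2 change (2-cell embryos minus zygotes) of each gene in lists with at least 5 included genes (grey dots), with the list median as deposited (black diamonds) and on the ERCC scale (open circles); numbers in brackets are genes per list, and dotted lines are the medians of all 11438 genes, 0.46 and -0.68. The medians of transient 2-cell, ribosomal protein, nucleolar and activation lists are positive on both scales, and those of the oocyte families are negative on both.

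Oocyte gene families fell as groups. None of the oocyte Nlrp genes was higher, since 0 of 12 genes rose and 11 fell, with a median of -1.83 (-3.27 on the ERCC scale). Nlrp4a was at 17.5 and 17 FPKM in 2-cell embryos, against 206, 229 and 217 FPKM in zygotes, and Nlrp4f and Nlrp4g changed by -2.93 and -2.78. The member not called, named after its values were seen, was Nlrp14 at 0.08. Of the oocyte Fbxw genes, which encode F-box proteins, 0 of 14 genes rose and 13 fell, with a median of -1.9 (-3.35 on the ERCC scale). Fbxw22 had 7.88 and 6.42 FPKM in the 2-cell libraries and 70.4, 82.8 and 71.9 FPKM in the zygote libraries and Fbxw28 had 26.2 and 21.9 FPKM in the 2-cell libraries and 194, 296 and 198 FPKM in the zygote libraries. Fbxw20, Fbxw14 and Fbxw24 changed by -3.17, -2.85 and -2.55, and Fbxw13, named after its values were seen, was not called at -0.48. The oogenesin genes, a family of leucine-rich repeat proteins of the ovary, all fell (7 of 7), also on the ERCC scale. Oog3 was at 352 and 314 FPKM in 2-cell embryos, against 874, 988 and 869 FPKM in zygotes and Oog4 at 12.5 and 10.6 FPKM in 2-cell embryos, against 111, 119.6 and 103 FPKM in zygotes, while C87499 and C87977 changed by -3.54 and -1.98. The members of each family resemble one another closely, and single values are uncertain for that reason.

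Maternal-effect genes, including those of the subcortical maternal complex, gave 8 risen and 23 fallen genes of 38, with a median of -0.71 (2 rose and 33 fell on the ERCC scale). Their summed FPKM was 10106 and 9270.2 FPKM in the 2-cell libraries, against 34916, 34321 and 32600.5 FPKM in the zygote libraries. Uhrf1, which guides maintenance of DNA methylation, was at 20.4 and 21.5 FPKM in 2-cell embryos, against 286, 252 and 263 FPKM in zygotes. Bpgm, which encodes bisphosphoglycerate mutase, had 171 and 149 FPKM in the 2-cell libraries and 1482, 1471 and 1367 FPKM in the zygote libraries.

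Oocyte transcription factors gave 3 risen and 13 fallen genes of 19, with a median of -1.32 (0 rose and 18 fell on the ERCC scale). Stat3 had 20.9 and 23 FPKM in the 2-cell libraries and 85, 73.7 and 79.8 FPKM in the zygote libraries, and Sohlh2, a helix-loop-helix factor of early follicles, had 0.883 and 1.15 FPKM in the 2-cell libraries and 8.09, 6.7 and 7.71 FPKM in the zygote libraries. The 3 risen members, Taf4b, Gata4 and Sebox, were named after their values were seen and changed by 1.43, 1.09 and 1.12; none of them was called higher on the ERCC scale. For secreted factors and receptors of the oocyte 3 of 18 genes rose and 13 fell (0 rose and 15 fell on the ERCC scale). Gdf9, the growth factor through which the oocyte acts on granulosa cells, was at 110.0 and 112 FPKM in 2-cell embryos, against 963, 1055 and 911 FPKM in zygotes, a log2 change of -3.12 ± 0.0892 (SE, adjusted p = 3.92e-16). GV oocytes of 3-week females had held 2724, 2679.8 and 2706 FPKM. Oosp1, an oocyte-secreted protein gene, was at 719 and 537 FPKM in 2-cell embryos, against 1958, 2099 and 1862 FPKM in zygotes, and Oas1e at 29 and 22.5 FPKM in 2-cell embryos, against 248, 219 and 249 FPKM in zygotes. Oas1h changed by -2.68.

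Zona pellucida and gamete fusion genes, the egg's coat and its partners for sperm, gave 2 risen and 6 fallen genes of 10 (2 rose and 8 fell on the ERCC scale). The coat genes Zp2 and Zp3, named after their values were seen, were not called. Zp2 was at 26.5 and 22.9 FPKM in 2-cell embryos, against 26.3, 23.5 and 22.5 FPKM in zygotes, and the 95% interval of its log2 change was -0.29 to 0.36 (adjusted p = 0.857). Zp3 was at 31.6 and 34.7 FPKM in 2-cell embryos, against 35.9, 37.8 and 36.4 FPKM in zygotes, with an interval of -0.68 to 0.40 (adjusted p = 0.656). On the ERCC scale their changes were -1.56 and -1.77, and 3-week GV oocytes had held 939, 991 and 958 FPKM of Zp2 and 1811, 1832 and 1779 FPKM of Zp3. Cd9, the tetraspanin that the egg needs for sperm fusion, was at 34.7 and 23 FPKM in 2-cell embryos, against 1.86, 2.63 and 2.02 FPKM in zygotes, a log2 change of 3.21 ± 0.183 (SE, adjusted p = 5.04e-12). Tex101 changed by 2.56. The integrin genes Itga6 and Itga9 were at 14 and 21.1 FPKM in 2-cell embryos, against 70.7, 87.5 and 78.2 FPKM in zygotes and at 24.1 and 18.1 FPKM in 2-cell embryos, against 68.1, 62.8 and 60.6 FPKM in zygotes.

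The machinery that shortens and destroys maternal mRNA changed in both directions. Among deadenylation genes 12 of 28 genes rose and 13 fell, and on the ERCC scale 5 rose and 17 fell. The antiproliferative adaptors Tob1 and Tob2 rose: Tob1 was at 24.8 and 18.8 FPKM in 2-cell embryos, against 0.532, 0.748 and 0.16 FPKM in zygotes and Tob2 at 93.4 and 70.5 FPKM in 2-cell embryos, against 8.58, 7.03 and 8.16 FPKM in zygotes. Pabpc1, the main cytoplasmic poly(A)-binding protein gene, was at 129 and 112 FPKM in 2-cell embryos, against 9.39, 7.34 and 7.98 FPKM in zygotes. Pabpn1l, an oocyte gene needed for maternal mRNA decay, was at 7.04 and 5.65 FPKM in 2-cell embryos, against 62, 62.6 and 65.3 FPKM in zygotes. Btg4 changed by -1.14. For uridylation, decapping and exonuclease genes 23 of 48 genes rose and 17 fell (7 rose and 30 fell on the ERCC scale). Dis3, the exosome nuclease, was at 18.4 and 15 FPKM in 2-cell embryos, against 0.368, 0.0983 and 0.19 FPKM in zygotes, and Smg5, of nonsense-mediated decay, at 33.5 and 40.7 FPKM in 2-cell embryos, against 1.65, 1.63 and 1.69 FPKM in zygotes. Lsm14b, an oocyte RNP granule gene, was the most abundant of that list at 65.9 and 79.4 FPKM in 2-cell embryos, against 918, 1004 and 902 FPKM in zygotes.

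Storage and translation control genes gave 14 risen and 15 fallen genes of 35 (4 rose and 23 fell on the ERCC scale). Ybx1, an mRNA-packaging protein gene, was at 229 and 202 FPKM in 2-cell embryos, against 26.3, 33.4 and 26.5 FPKM in zygotes. Ddx20, an RNA helicase gene of the SMN complex, and Larp1, a regulator of ribosomal protein mRNA, changed by 4.31 and 3.76. Small RNA pathway genes gave 12 risen and 7 fallen genes of 25 (2 rose and 14 fell on the ERCC scale). Ago2, the slicer Argonaute, was at 10.9 and 9.35 FPKM in 2-cell embryos, against 0.449, 0.751 and 0.684 FPKM in zygotes, and Dicer1 at 22.9 and 22 FPKM in 2-cell embryos, against 72.5, 68.6 and 78.6 FPKM in zygotes. Piwil2 changed by 2.28. Tarbp2 and Dgcr8 changed by 2.11 and 1.95, values that were not called on the ERCC scale (adjusted p = 0.0522 and 0.163).

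Meiosis and spindle checkpoint genes gave 15 risen and 23 fallen genes of 48 (6 rose and 37 fell on the ERCC scale). Cdk1, the mitotic kinase, was at 47 and 35.9 FPKM in 2-cell embryos, against 1.95, 1.24 and 1.7 FPKM in zygotes, and Cdc25c, the phosphatase that activates it, at 36.3 and 29.4 FPKM in 2-cell embryos, against 0.106, 0.0995 and 0.288 FPKM in zygotes. Fbxo5, an inhibitor of the anaphase-promoting complex, was at 53.6 and 30.7 FPKM in 2-cell embryos, against 3.11, 1.46 and 2.5 FPKM in zygotes, and Pttg1, securin, at 272 and 211 FPKM in 2-cell embryos, against 1119, 1217 and 956 FPKM in zygotes. G1 and S phase regulators gave 19 risen and 4 fallen genes of 27 as deposited, while on the ERCC scale 7 rose and 11 fell. Ccne1, cyclin E1, was at 166 and 148 FPKM in 2-cell embryos, against 4.53, 4.54 and 2.48 FPKM in zygotes, a log2 change of 5.06 ± 0.259 (SE, adjusted p = 1.08e-12). Its partner kinase Cdk2 was at 36.6 and 28 FPKM in 2-cell embryos, against 0.994, 0.83 and 1.13 FPKM in zygotes, and the kinase inhibitor Cdkn1a at 18.9 and 18.9 FPKM in 2-cell embryos, against 0.324, 0.101 and 0.782 FPKM in zygotes. E2f5 changed by -0.58, a value that turned to 0.1 under quantile normalization.

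Of the DNA replication genes 24 of 54 genes rose and 21 fell (44.4% and 38.9%), against 50.4% and 28.3% of all 11438 genes. Over all genes fitted, 44.4% were higher and 24.1% lower. On the ERCC scale 8 of the replication genes rose and 34 fell. Prim1, a primase subunit, was at 16.2 and 15.1 FPKM in 2-cell embryos, against 0.277, 0.13 and 0.627 FPKM in zygotes, Fen1, the flap endonuclease, at 18.4 and 19.1 FPKM in 2-cell embryos, against 0.823, 0.431 and 1.16 FPKM in zygotes, and Rpa2, of the single-strand binding complex, at 31.5 and 25 FPKM in 2-cell embryos, against 1.52, 1.54 and 1.9 FPKM in zygotes. Gins2 changed by 2.51. Dbf4, the activator of the CDC7 kinase, was at 317 and 298 FPKM in 2-cell embryos, against 281, 311 and 283 FPKM in zygotes and was not called (adjusted p = 0.439), with -1.67 on the ERCC scale. For p53 pathway and DNA damage genes 16 of 31 genes rose and 13 fell (5 rose and 15 fell on the ERCC scale). Sesn2, a stress-induced inhibitor of mTORC1 signalling, was at 151 and 143 FPKM in 2-cell embryos, against 1.28, 0.918 and 1.64 FPKM in zygotes, a log2 change of 6.04 ± 0.173 (SE, adjusted p = 4.26e-16). Gadd45b, Chek2 and Bbc3 changed by 3.82, 3.48 and 3.15, and Mdm4, an inhibitor of p53, by -1.32.

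Cxxc1, the gene targeted in the study, was at 9.94 and 11 FPKM in 2-cell embryos, against 29.1, 24 and 30.7 FPKM in zygotes, a log2 change of -1.33 ± 0.291 (SE, adjusted p = 4.16e-04), and at 39.9, 37.9 and 41.5 FPKM in 3-week GV oocytes. It belongs to the H3K4 methylation genes, which gave 8 risen and 14 fallen genes of 25 (2 rose and 21 fell on the ERCC scale). The demethylases of this mark went in opposite directions. Kdm5b, which removes trimethylation, was at 73.8 and 64.5 FPKM in 2-cell embryos, against 0.606, 0.567 and 0.96 FPKM in zygotes, a log2 change of 5.36 ± 0.247 (SE, adjusted p = 2.41e-13), and Kdm5a changed by 3.08. Both were under 1 FPKM in each zygote library, so the filter set their direction. Kdm1b, needed in oocytes to set imprints, was at 18.8 and 17.5 FPKM in 2-cell embryos, against 96.2, 106 and 95.5 FPKM in zygotes, and Kdm1a at 11.4 and 13.5 FPKM in 2-cell embryos, against 62, 53.4 and 63.2 FPKM in zygotes. Psip1, the most abundant of the list, changed by -0.63 and was not called after quantile normalization.

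DNA methylation genes gave 6 risen and 9 fallen genes of 17 (2 rose and 11 fell on the ERCC scale). Tet1 was at 6.33 and 7.49 FPKM in 2-cell embryos, against 0.0939, 0.0376 and 0.0364 FPKM in zygotes, the direction opposite to that of its relative Tet3. Smug1, a uracil glycosylase gene, was at 2.99 and 3.66 FPKM in 2-cell embryos, against 26.8, 19.6 and 27.1 FPKM in zygotes. Dppa3, which shields the maternal genome from oxidation of 5-methylcytosine, was the most abundant of the list at 966 and 806 FPKM in 2-cell embryos, against 859, 919 and 789 FPKM in zygotes and was not called (log2 change 0.05, adjusted p = 0.747), with -1.7 on the ERCC scale.

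Polycomb genes gave 11 risen and 13 fallen genes of 33 (5 rose and 24 fell on the ERCC scale). Pcgf5 was at 36.4 and 34.9 FPKM in 2-cell embryos, against 2.12, 2.12 and 1.92 FPKM in zygotes, and Rbbp7, a histone-binding WD40 protein gene shared with other complexes, at 119 and 119 FPKM in 2-cell embryos, against 1057, 1143 and 1038 FPKM in zygotes. Cbx8 and Mtf2 changed by 2.94 and 2.65. H3K9 methylation and heterochromatin genes gave 13 risen and 10 fallen genes of 25 (8 rose and 13 fell on the ERCC scale). Suv39h1, which methylates H3K9, was at 38.8 and 32.7 FPKM in 2-cell embryos, against 1.84, 1.46 and 1.24 FPKM in zygotes, and Cbx3, a reader of that mark, at 54.1 and 49.8 FPKM in 2-cell embryos, against 3.34, 4.65 and 3.44 FPKM in zygotes. Zfp644 and the demethylase Kdm3a changed by 3.04 and 2.8. Trim28, the KRAB corepressor, was at 91.4 and 93.4 FPKM in 2-cell embryos, against 124, 130.5 and 113 FPKM in zygotes and was not called after quantile normalization. SWI/SNF and NuRD genes gave 18 risen and 14 fallen genes of 37 (5 rose and 22 fell on the ERCC scale). Mta2 and Hdac1, which are subunits of NuRD, were at 141 and 152 FPKM in 2-cell embryos, against 1.92, 1.74 and 1.62 FPKM in zygotes, and at 82.7 and 62.7 FPKM in 2-cell embryos, against 1.98, 0.979 and 1.23 FPKM in zygotes. Smarcc1 and Smarcd1 changed by 3.31 and 3.17. Bcl7c changed by 0.43, a value that was not called without 2-cell library 1 (0.27, adjusted p = 0.29) or zygote library 3 (0.34, adjusted p = 0.108) and was -1.32 on the ERCC scale.

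Histone variants and chaperones gave 15 risen and 13 fallen genes of 32 (7 rose and 20 fell on the ERCC scale). H2afz, which encodes H2A.Z, was at 307 and 244 FPKM in 2-cell embryos, against 22.1, 23.6 and 18.3 FPKM in zygotes, and H2afv changed by 3.35. Set, a histone chaperone gene, was at 76.9 and 84.6 FPKM in 2-cell embryos, against 7.15, 6.83 and 7.36 FPKM in zygotes. Clustered histone genes, whose mRNAs lack poly(A) tails, were scarce: 29 of 68 in the table were included, and of these 5 rose and 1 fell (1 rose and 5 fell on the ERCC scale). Hist1h4i was at 6.14 and 22.5 FPKM in 2-cell embryos, against 2.69, 0 and 0.811 FPKM in zygotes, with the 2-cell libraries far apart. Hist1h2bk and Hist1h4a changed by 1.45 and 1.31, and both were not called on the ERCC scale. Hist1h2aa had 8.47 and 2.14 FPKM in the 2-cell libraries and 12.3, 14.6 and 9.87 FPKM in the zygote libraries and was not called without 2-cell library 2 (-0.47, adjusted p = 0.0917).

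Among pluripotency and lineage genes 16 of 24 genes rose and 3 fell (10 rose and 10 fell on the ERCC scale). Prmt6, an arginine methyltransferase gene, was at 83.4 and 66.6 FPKM in 2-cell embryos, against 0.500, 0.323 and 0.653 FPKM in zygotes. Zfp42, the stem cell marker REX1, was at 21.5 and 11.5 FPKM in 2-cell embryos, against 0.115, 0.217 and 0.209 FPKM in zygotes, and Id2, an inhibitor of helix-loop-helix factors, at 17.5 and 6.51 FPKM in 2-cell embryos, against 0.172, 0.486 and 0 FPKM in zygotes. Cell adhesion and junction genes gave 14 risen and 12 fallen genes of 34 (7 rose and 19 fell on the ERCC scale). Cldn6, a tight junction gene of embryonic epithelia, was at 30.0 and 32.7 FPKM in 2-cell embryos, against 0, 0 and 0.256 FPKM in zygotes, and Epcam at 29.7 and 23.3 FPKM in 2-cell embryos, against 1.99, 0.28 and 1.8 FPKM in zygotes. F11r and Itgb5 changed by 3.61 and 2.83. Ctnnb1, beta-catenin, was at 58 and 56.9 FPKM in 2-cell embryos, against 284, 295 and 273 FPKM in zygotes. Apoptosis genes gave 14 risen and 5 fallen genes of 24 (4 rose and 10 fell on the ERCC scale). Mcl1 changed by 3.17 and Bcl2l10 by -2.64, and both encode inhibitors of apoptosis.

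The large families of solute carrier and Zfp-named zinc-finger genes had shares near those of all 11438 genes, which were 50.4% higher and 28.3% lower. Of the solute carrier genes 83 of 177 genes rose and 58 fell (46.9% and 32.8%; 33 rose and 98 fell on the ERCC scale), and of the zinc-finger family 118 of 234 genes rose and 58 fell (50.4% and 24.8%; 54 rose and 117 fell on the ERCC scale). Slc19a3, the thiamine transporter, was at 48.1 and 62 FPKM in 2-cell embryos, against 0.200, 0.749 and 0.241 FPKM in zygotes. Slc25a28, the mitochondrial iron importer, and Slc5a6, a vitamin transporter, changed by 5.1 and 5.04, and Slc45a3 by -2.2. Zfp707 was at 110.0 and 107 FPKM in 2-cell embryos, against 0.343, 0.322 and 0.931 FPKM in zygotes, and Zfp775 changed by 5.04. Zfp513 was at 183 and 183 FPKM in 2-cell embryos, against 233, 231 and 206 FPKM in zygotes; its change of -0.28 was lost without each of 4 libraries in turn (2-cell 1 and 2, zygote 1 and 2; adjusted p from 0.0684 to 0.0887) and turned to 0.22 under quantile normalization.

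Most markers of other cell types did not reach 1 FPKM in enough libraries to be included. Of 23 granulosa and cumulus cell markers 5 were included, of which 2 rose and 3 fell, and the summed FPKM was 31.6 and 36.1 FPKM in the 2-cell libraries, against 19.2, 21.5 and 20.7 FPKM in the zygote libraries. Amhr2, the receptor of anti-Müllerian hormone, was at 20.2 and 25.8 FPKM in 2-cell embryos, against 0, 0 and 0.0957 FPKM in zygotes, and Cyp19a1, aromatase, at 1.42 and 0.947 FPKM in 2-cell embryos, against 13.9, 15.2 and 14 FPKM in zygotes. Gja1 had 3.43 and 2.98 FPKM in the 2-cell libraries and 0.191, 0.0596 and 0.0576 FPKM in the zygote libraries and was not called without 2-cell library 1 (1.85, adjusted p = 0.0651). Greb1 was called at an adjusted p of 0.0494 and at none of the settings that left out 1 of the 5 libraries (0.061 to 0.233). Of 12 oviduct markers 3 were included and rose, the highest being Cd24a at 4.25 and 3.99 FPKM in 2-cell embryos, against 0, 0.215 and 0.103 FPKM in zygotes, and the sum was 10.2 and 8.72 FPKM in the 2-cell libraries, against 1.17, 1.18 and 1.24 FPKM in the zygote libraries. The other 9 oviduct markers, among them Pax8 and Wt1, and the granulosa markers Fshr, Lhcgr, Has2, Ptx3 and Tnfaip6 did not reach 1 FPKM in 2 of the 23 libraries. Of 16 blood cell markers 6 were included and 2 were called, and the sum was 23.1 and 16.9 FPKM in the 2-cell libraries, against 5.01, 21.4 and 6.29 FPKM in the zygote libraries. Hba-a1 had 4.44 and 4.32 FPKM in the 2-cell libraries and 0, 4.6 and 0 FPKM in the zygote libraries, and S100a9 had 0.739 and 4.63 FPKM in the 2-cell libraries and 0, 0 and 2.06 FPKM in the zygote libraries. The call of Hba-a1 was lost without 2-cell library 1 or 2 or zygote library 1 or 3 (adjusted p from 0.0654 to 0.0854). That of S100a9 was lost without 2-cell library 2 (adjusted p = 0.578) or without zygote library 1 or 2 (0.0758 and 0.0765). Lyz2 was not called (adjusted p = 0.673). Fibroblast and endothelial markers were represented by 3 of 13, with Pecam1 at 10.5 and 15.5 FPKM in 2-cell embryos, against 33.9, 40.1 and 36.1 FPKM in zygotes, and sperm RNA markers by 10 of 16, with 1 that rose (Tssk6, 3.16) and 1 that fell (Odf2, -1.09). Their part in the results was not tested.

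Levels in wild-type GV oocytes of 3-week females are given as a description, since the classes of risen and fallen genes were chosen on zygote and 2-cell levels. Of the 2234 genes higher by at least 4-fold, 567 (25.4%) stayed under 1 FPKM in each of 6 wild-type GV libraries, 3 from 3-week and 3 from 3-month females, against 11.2% of all 11438 genes. The median of the 2234 genes was 4.05 FPKM in GV oocytes, 0.79 FPKM in zygotes and 17 FPKM in 2-cell embryos. The medians of all 11438 genes also dipped in zygotes, at 9.93 FPKM in GV oocytes, 3.99 FPKM in zygotes and 8.39 FPKM in 2-cell embryos. In 1018 of the 2234 genes (45.6%) the GV mean was over 5 times the zygote mean, with zygote means under 0.2 FPKM set to 0.2, against 23.1% of all 11438 genes. In 457 (20.5%) the GV mean was at least as high as the 2-cell mean, against 53.1% of all 11438 genes. Ribosomal protein genes had medians of 134 FPKM in GV oocytes, 8.02 FPKM in zygotes and 94.7 FPKM in 2-cell embryos. Oxidative phosphorylation genes were at 52.5, 4.66 and 15.5 FPKM in the same order of stages. The 427 genes lower by at least 4-fold had medians of 37.1 FPKM in GV oocytes, 60.9 FPKM in zygotes and 9.20 FPKM in 2-cell embryos. For 333 of them (78.0%) the zygote mean lay above the GV mean, against 34.4% of all 11438 genes, and for 162 (37.9%) it was at least 2 times as high, against 15.5%. Tet3 was such a gene, with 59.6, 51.9 and 63.7 FPKM in GV oocytes. FPKM is a share of the library at each stage, and ERCC rows were also lower relative to genes in GV oocytes (654 to 1142 FPKM of genes per ERCC FPKM in wild type), so levels across the 3 stages are shares too.

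**Figure D5:**
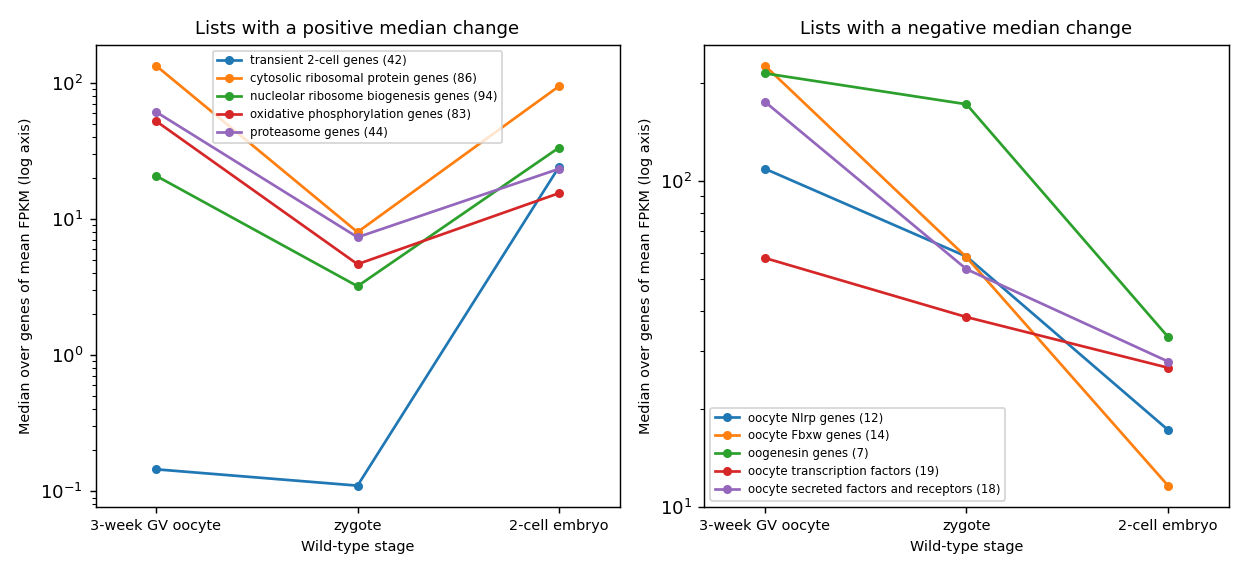
Median over genes of mean FPKM (log axis) in wild-type 3-week GV oocytes, zygotes and 2-cell embryos for lists with a positive (left) and a negative (right) median change from zygote to 2-cell embryo; brackets give genes per list. The 4 lists of ribosomal, nucleolar, respiratory and proteasome genes are lowest in zygotes, transient 2-cell genes are under 0.2 FPKM until the 2-cell stage, and the 5 oocyte lists are lower at each later stage.

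Gene length differed between the classes. The span of the gene in RefSeq was known for 99.6% of genes higher by at least 4-fold and for all of the 427 that were lower by at least 4-fold. Its median was 11.9 kb for the higher class and 29.6 kb for the lower class, against 22.6 kb for the 11438 genes. Transient 2-cell genes had a median span of 3.95 kb and ribosomal protein genes one of 3.17 kb. These are descriptions with no test, since genes are not replicates.

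The same step was compared with that of embryos from Cxxc1-deleted oocytes (mothers Cxxc1 fl/fl;Zp3-Cre, fathers wild type), which had 3 libraries at each stage. The difference between the wild-type change and the deletion change was called for 7197 of the 11438 genes, with the wild-type change higher for 4354 and lower for 2843. Over the 13731 genes fitted it was called for 7419 (54.0%), higher for 4465 (32.5%) and lower for 2954 (21.5%). Library 3 of the deletion 2-cell embryos held 12295 genes at 1 FPKM or more, against 10441 and 10148 in libraries 1 and 2. Without library 3 the difference was called for 7688 of the 11438 genes, 4804 higher and 2884 lower. On the ERCC scale 4090 were called, 2307 higher and 1783 lower. Each difference rests on the zygote levels of both genotypes as well as on the 2-cell levels.

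Alppl2 and Slc34a2, with the largest positive differences, changed by 0.89 and 0.44 in deletion embryos, against 7.33 and 6.7 in wild type. Alppl2 was at 3.04, 5.36 and 2.89 FPKM in deletion 2-cell embryos, against 1.46, 1.36 and 1.72 FPKM in deletion zygotes, and the difference in log2 change was 6.44 ± 0.246 (SE, adjusted p = 3.04e-13). Slc34a2 was at 1.77, 1.7 and 1.81 FPKM in deletion 2-cell embryos, against 1.19, 0.681 and 1.3 FPKM in deletion zygotes, with a difference of 6.26 ± 0.232 (SE, adjusted p = 2.34e-13). Crxos and Gm11544 changed by 1.09 and 1.52 in deletion embryos, with differences of 5.8 ± 0.353 (SE, adjusted p = 9.12e-11) and 5.71 ± 0.274 (SE, adjusted p = 4.33e-12). In the other direction, Nlrp4a, Obox2 and Rgs2 changed by -0.02, -0.67 and -0.80 in deletion embryos, against -3.58, -4.51 and -5.03 in wild type. Nlrp4a was at 122, 131 and 105 FPKM in deletion 2-cell embryos, against 112, 130.3 and 121 FPKM in deletion zygotes, with a difference of -3.56 ± 0.126 (SE, adjusted p = 1.15e-13). Obox2 was at 307, 335 and 164 FPKM in deletion 2-cell embryos, against 450.3, 349.8 and 437 FPKM in deletion zygotes, with a difference of -3.83 ± 0.303 (SE, adjusted p = 2.76e-09), and Rgs2 at 125, 151 and 60.8 FPKM in deletion 2-cell embryos, against 172, 199 and 181 FPKM in deletion zygotes, with a difference of -4.23 ± 0.356 (SE, adjusted p = 6.32e-09). Oas1h changed by 0.72 in deletion embryos, and its difference was -3.41 ± 0.200 (SE, adjusted p = 5.83e-11). All 8 differences were called without deletion 2-cell library 3, where that of Rgs2 was -4.62 and that of Alppl2 was 6.31.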

How the data were processed

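RNA of wild-type zygotes and 2-cell embryos was sequenced within a series of 23 libraries in 8 groups. Per the labels' protocols, RNeasy micro columns and NEBNext Ultra reagents were used. The tools included TopHat2 2.0.12 and Cufflinks 2.2.1, per the submitters' processing notes, which name both mm10 and mm9 with no role, so gene coordinates are left out. The authors deposited FPKM per gene in 1 table. Neither strand, annotation nor spike-in use is stated there.

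Computed here: 95 rows that name no mouse gene were left out of the tests. log2(FPKM + 1) of genes at 1 FPKM or more in at least 2 of 23 libraries (13731) was fitted with 8 group means in limma 3.58.1 (R 4.3.3) with a mean-variance trend, and Benjamini-Hochberg adjustment ran over all genes fitted; calls are at adjusted p under 0.05. An SE is that of the fitted difference. The script was tested on simulated data. An exact 0 can be a failed estimate. Rows with a date as name, 18 of the 11438, stayed in the tests unnamed. ERCC scaling divides each library by its ERCC FPKM relative to the geometric mean of all libraries. Named genes are Cxxc1, the 15 largest called rises and falls (mean of at least 5 FPKM over the 5 libraries, no overlap), up to 4 called genes with the largest change and the gene with the highest mean per list, the 8 most abundant per stage, the 5 smallest changes at a mean of at least 50 FPKM in both stages, and 4 per direction for the difference between genotypes. Members and the 51 lists were chosen with earlier results of these data known. Alternatives were another pseudocount (0.1), other filters, scalings and fits, each library left out, and the replicate number as a block. Whether replicate numbers pair the libraries is not known. Promoters and gene spans are RefSeq's for GRCm38.p6, matched by symbol or synonym.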

Additional observations from a re-analysis of the deposited data

Results flagged for a closer look

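The wild-type change from zygote to 2-cell embryo differed from that in embryos of Cxxc1 fl/fl;Zp3-Cre mothers, by a test of the difference itself, in 8 named genes. Alppl2 differed by 6.44, Slc34a2 by 6.26, Crxos by 5.8 and Gm11544 by 5.71 on the log2 scale, all with a larger rise in wild type. Rgs2 differed by -4.23, Obox2 by -3.83, Nlrp4a by -3.56 and Oas1h by -3.41, all with a lower change in wild type. These are the extremes of 7197 called differences, and every one kept its direction and its call in the 21 alternatives run for them.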

How the results depend on the processing

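Scaling moved the balance of directions most. Quantile normalization gave 5010 genes lower and 1003 lower by at least 4-fold, median-of-ratios scaling gave 844 lower by at least 4-fold, and ERCC scaling, chosen after seeing the data, gave 2231 higher and 5883 lower, 486 and 2223 of them by at least 4-fold. A pseudocount of 0.1 gave 3434 genes higher and 667 lower by at least 4-fold. A mean of at least 5 FPKM, which tests fewer genes, left 5614 called, 3086 higher and 1471 higher by at least 4-fold. For the difference from deletion embryos that filter left 4732 called and 2318 higher, quantile normalization gave 4527 lower, and ERCC scaling gave 4090 called, 2307 higher and 1783 lower. Leaving out 1 library in turn gave 8396 to 9212 genes called, 5389 to 5889 higher and 2989 to 3323 lower, with 2179 to 2294 higher and 415 to 446 lower by at least 4-fold. For the difference it gave 6570 to 7688 called, 3981 to 4804 higher and 2589 to 2884 lower.

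Of the 244 named genes, 9 changed sign under quantile normalization and were called as deposited or after it: Yap1 0.21, E2f5 0.1, Nup62 0.21, Zfp513 0.22, Rbm38 0.84, Mphosph6 0.01, Khdc1b 0.45, Bcl2l1 0.24 and Tesc 0.55. Yap1, E2f5, Nup62, Zfp513 and Mphosph6 were not called after it, and Rbm38, Bcl2l1 and Tesc were not called as deposited. ERCC scaling changed the sign of 14 by the same rule, with log2 changes of -0.44 for Gnas, -1.67 for Dbf4, -1.3 for Snrpg, -1.55 for Mrpl10, -1.23 for Eif5a, -0.88 for Lars2, -0.98 for Cox8a, -1.7 for Dppa3, -1.32 for Bcl7c, -1.45 for Omt2b, -1.23 for Omt2a, -0.51 for Rn45s, -1.7 for Ipmk and -1.67 for Fam53c. Gnas and Rn45s were not called after it. Dbf4, Mrpl10, Dppa3, Omt2b, Ipmk and Fam53c were not called as deposited. Median-of-ratios scaling changed the sign of Dbf4 at -0.37, Mrpl10 at -0.32, Dppa3 at -0.39, Bcl7c at -0.01, Ipmk at -0.43 and Fam53c at -0.43. Of these, Bcl7c was no longer called (adjusted p = 0.962), and the others had not been called as deposited. Positive list medians turned negative under both median-of-ratios scaling and quantile normalization for uridylation (-0.41 and -0.41), small RNA (-0.10 and -0.76), Polycomb (-0.43 and -0.16), histone variant (-0.16 and -0.02), adhesion (-0.21 and -0.24) and solute carrier genes (-0.02 and -0.45), and for sperm RNA markers (-0.04 and -0.64). The cause was not tested.

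Same-numbered wild-type libraries had correlations of deviations of -0.044 and -0.045. With 2 libraries of 2-cell embryos these are not independent values. They cannot show whether same-numbered libraries shared a collection. With the replicate number as a block 7503 genes were called, 5001 higher and 2502 lower, and 5869 for the difference. Under the block 10 of the 244 named genes were no longer called. With 2 libraries of 2-cell embryos and unknown depth, small changes of low genes are the least certain.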
